A study of Homo sapiens with 27 samples.

Results

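The *GNAQ* mutant uveal melanoma line 92.1 was followed here through its second week in control culture, by setting the 3 mRNA libraries labelled DMSO day 14 against the 3 labelled DMSO day 7. These 6 libraries were chosen by treatment and day in the sample titles, out of 27 in 9 groups of 3. The other groups are DMSO at days 0, 3 and 21 and cells kept in 100 nM VS-4718, an inhibitor of focal adhesion kinase (FAK) written FAKi below, at days 3, 7, 14 and 21, of which the 6 FAKi libraries of days 7 and 14 serve as a comparison. The control cells received the solvent dimethyl sulfoxide (DMSO) with no inhibitor. All cells were kept in RPMI medium with serum, passaged throughout, and given fresh DMSO or inhibitor every 72 h. One line stands here for uveal melanoma, a melanocyte-derived tumour of the eye, and every group carries its *GNAQ* mutation. The time from the last medium change or passage to harvest is not given in the sources used here. The study describes both plating in triplicate and repeats of the complete experiment, and the labels do not say which of these the replicate number counts, so p-values measure only the spread between these libraries, which may be technical.

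Total counts were between 19944223 and 31262413 at day 7 and between 33797191 and 34939525 at day 14. Mitochondrial genes took 17.05 to 19.3% of the counts at day 7 and 21.95 to 26.97% at day 14, against 5.49 to 26.97% over the series, and between 26845 and 28245 genes had a count at day 7 against 23194 to 26421 at day 14. All 7 melanocyte markers were detected, with a summed level of 10626 to 11022 CPM (counts divided by library depth, scaled by the trimmed mean of M values, TMM) at day 7 and 8885 to 9590 CPM at day 14. Blood cell and endothelial markers summed to 0.622 CPM or less in each of the 6 libraries, with *CDH5* at 0, and fibroblast markers to between 7.73 and 12.4 CPM, with *COL1A2* and *COL3A1* at 0. Epithelial markers summed to 23.9 to 28.6 CPM at day 7 and 8.05 to 11.02 CPM at day 14, with *KRT8* and *KRT18* called lower (-1.505 and -1.597), *KRT5* at 0 and *EPCAM* at 1 count in all. Retinal pigment epithelium markers summed to 1118 to 1371 CPM at day 7 and 1042 to 1293 CPM at day 14, nearly all of it *BEST1*, with *RLBP1* between 3.17 and 7.59 CPM and *RPE65* at 0. The part of these differences in the results was not tested, and in bulk RNA a change in how many cells express a gene cannot be told apart from a change in RNA per cell. Libraries of day 7 lay closer together (root mean square log2 distance 0.219 to 0.268 over 16585 genes) than those of day 14 (0.437 to 0.504), and pairs from different days lay 0.612 to 0.639 apart.

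Mutant Gαq keeps phospholipase C and protein kinase C active in uveal melanoma cells and so drives the ERK kinase cascade, and it also drives FAK and the transcriptional co-activator YAP. Active ERK switches on its own inhibitors, among them the Sprouty proteins and the dual-specificity phosphatase DUSP6, and RNA of these genes is a common readout of the cascade. Cells in culture also adjust amino acid supply, lipid synthesis and DNA replication to nutrients and density. The integrated stress response raises the transcription factor ATF4, which switches on amino acid transporters, synthetic enzymes and regulators such as TRIB3 and CHAC1.

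Of 19982 protein-coding genes in the count table, 14491 had at least 20 counts over the 6 libraries and were tested, and 2969 had no count. Calls needed an adjusted p no higher than 0.05 together with a log2 fold change above 1 in size. This held for 306 protein-coding genes higher at day 14 (2.11% of those tested) and 341 lower (2.35%), or 4.46% in both directions. Over all 23201 tested genes, non-coding ones included, 1294 were called (5.58%), 689 higher (2.97%) and 605 lower (2.61%). Without the fold threshold, 2353 protein-coding genes were higher (16.2%) and 2594 lower (17.9%), so most of the differences were below 2-fold. The protein-coding shares, 2.11% and 2.35% called and 16.2% and 17.9% on the adjusted p, are the background for every list count below. Of the called genes, 29 of the higher and 71 of the lower had an absolute log2 fold change over 2. All 3 day 14 libraries lay on one side of all 3 day 7 libraries for 302 of the 306 and 340 of the 341, where 22.6% and 27% of all tested protein-coding genes did so upwards and downwards. Genes named below by size or by p had to meet this condition, so for them it adds no support. The median log2 fold change over tested protein-coding genes was -0.02. Neither *PTK2* nor *GNAQ* passed the test. *PTK2*, which encodes FAK, averaged 144 and 124 CPM at days 7 and 14 (log2 fold change -0.22, SE 0.0833, edgeR adjusted p = 0.0666), and *GNAQ* 43.2 and 40.8 CPM (log2 fold change -0.08, SE 0.0974, edgeR adjusted p = 0.584). The day 14 libraries of *PTK2* all lay below those of day 7. After a correction for transcript length and GC content, chosen after seeing the data, *PTK2* had a log2 fold change of -0.31 (edgeR adjusted p = 0.00506). *GNAQ* then had -0.24 (edgeR adjusted p = 0.0496), and neither reached the fold threshold.

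**Figure D1:**
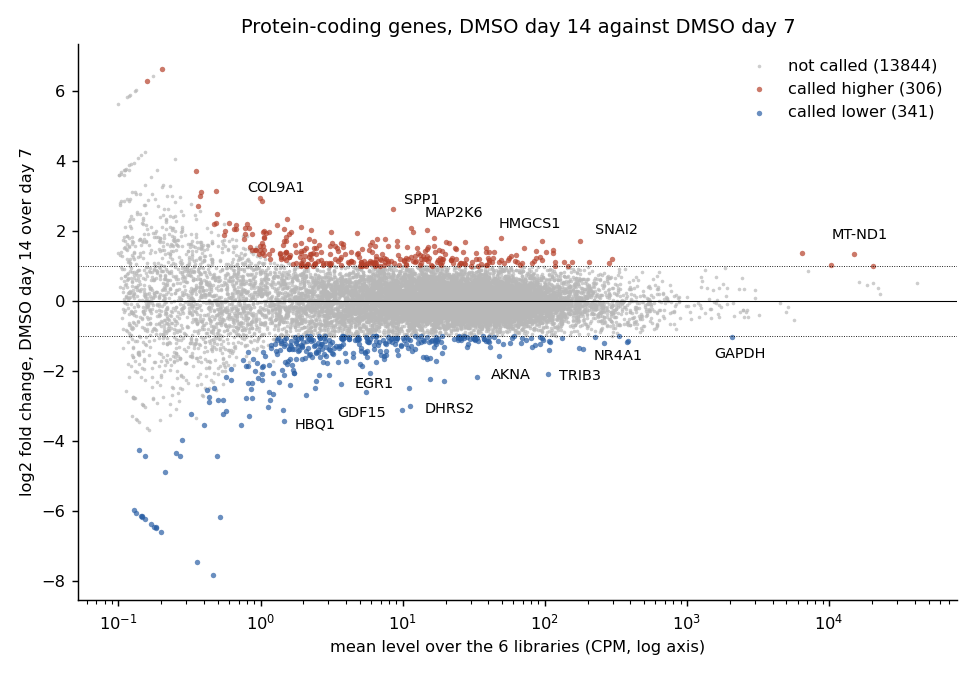
Log2 fold change of each tested protein-coding gene in DMSO, day 14 over day 7 (vertical axis), against its mean level over the 6 libraries in CPM (horizontal log axis), with 306 genes called higher in red, 341 called lower in blue and the rest in grey, and dotted lines at a log2 fold change of 1 and -1. The called genes reach from under 1 CPM to the mitochondrial transcripts above 1000 CPM, and named genes lie on both sides, *SPP1* at 2.63 and *GDF15* at -3.12.

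Genes of the integrated stress response were lower at day 14. Of 24 list members tested, 5 were called lower and 0 higher, 19 were lower and 0 higher on the adjusted p alone, and the list median was -0.79. *TRIB3* (ENSG00000101255.12, chr20:380760-397559, plus strand on hg38), a pseudokinase induced by ATF4, had 171, 164 and 174 CPM in the day 7 libraries and 41.4, 35.1 and 43.1 CPM in the day 14 libraries. Every day 14 library lay below every day 7 library, and the gene shared the smallest adjusted p among protein-coding genes with *AKNA* (log2 fold change -2.09, SE 0.0996, edgeR adjusted p = 1.56e-07). *GDF15* (ENSG00000130513.7, chr19:18386158-18389176, plus strand), a secreted stress cytokine, had 16.4, 16.9 and 20.1 CPM in the day 7 libraries and 2.57, 2.24 and 1.34 CPM in the day 14 libraries. It fell more than any other member of the list (log2 fold change -3.12, SE 0.21, edgeR adjusted p = 1.18e-06). *CHAC1*, which degrades glutathione, had 85.98, 102 and 114 CPM in the day 7 libraries and 48.9, 40.8 and 48.4 CPM in the day 14 libraries. The groups did not overlap (log2 fold change -1.13, SE 0.11, edgeR adjusted p = 1.90e-05), and the call was lost in the fit of all 27 libraries (edgeR adjusted p = 0.06001). *SESN2*, an inhibitor of mTORC1, and *CEBPB*, a transcription factor that partners ATF4, went from 35.2 ± 4.86 to 16.2 ± 2.51 CPM and from 58.6 ± 6.13 to 28.6 ± 2.502 CPM (SD, n = 3), with log2 fold changes of -1.11 and -1.04 and edgeR adjusted p of 7.00e-05 and 2.12e-05. *ATF4* itself averaged 1162 and 929.9 CPM (log2 fold change -0.32, SE 0.0871, edgeR adjusted p = 0.0139), and *ASNS*, asparagine synthetase, 289 and 159.7 CPM (log2 fold change -0.85, SE 0.0873, edgeR adjusted p = 1.97e-05), both lower on the adjusted p and below the fold threshold, and these 2 were chosen after their values were seen. In contrast *ATF3*, a stress-induced factor, averaged 21.6 and 21.7 CPM (log2 fold change 0.01, SE 0.11, edgeR adjusted p = 0.976), and *NUPR1*, a nuclear stress protein, 217 and 209 CPM (log2 fold change -0.06, SE 0.0899, edgeR adjusted p = 0.695), also chosen after the fact. After a correction for transcript length and GC content, *CHAC1*, *SESN2* and *CEBPB* had log2 fold changes of -0.91, -0.93 and -0.701, so that *TRIB3* and *GDF15* remained called, while 20 were lower on the adjusted p.

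The promoters of these genes are shown because ATF4 acts through a short composite element, searched here as TGATGNAA on either strand in the 250 bases before the RefSeq start site (GRCh38.p14), with matches in capitals. *CHAC1* (chr15:40953221-40953470, plus strand) has 1 match, which starts 209 bases before the start site, and *TRIB3* (chr20:381045-381294, plus strand) has none in this window. The *TRIB3* window lies inside the counted gene, chr20:380760-397559, so the bases before the start of the counted gene were not searched.
CHAC1: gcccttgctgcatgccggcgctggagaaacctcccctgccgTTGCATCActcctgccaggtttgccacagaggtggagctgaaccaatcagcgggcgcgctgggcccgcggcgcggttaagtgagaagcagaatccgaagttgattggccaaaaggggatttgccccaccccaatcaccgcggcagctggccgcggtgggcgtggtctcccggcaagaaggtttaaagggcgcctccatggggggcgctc
TRIB3: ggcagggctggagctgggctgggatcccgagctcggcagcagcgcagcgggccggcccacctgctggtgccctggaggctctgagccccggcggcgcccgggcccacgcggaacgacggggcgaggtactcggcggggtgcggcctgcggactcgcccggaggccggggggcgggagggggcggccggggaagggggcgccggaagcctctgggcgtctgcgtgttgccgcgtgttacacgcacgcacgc
Of the 20 tested list members with a promoter in the table, 4 held the element (20%), as did 1 of the 5 called, against 3.14% of all 35116 promoters. The share among tested members follows from the choice of list and not from the changes measured here. Only the first window of each member was searched, against every window in the background. A match describes the letters only, and its absence says only that they are not in these 250 bases.

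Targets and brakes of ERK signalling were lower at day 14. In the ERK feedback list 5 of 17 tested genes were called lower and 0 higher, 10 were lower and 0 higher on the adjusted p, and the median was -0.80. *SPRY4* (ENSG00000187678.10, chr5:142310442-142315790, minus strand), a Sprouty inhibitor of receptor signalling to ERK, had 159.9, 138 and 153 CPM in the day 7 libraries and 71.5, 69.2 and 60.8 CPM in the day 14 libraries. The day 14 values were all below the day 7 values (log2 fold change -1.16, SE 0.0973, edgeR adjusted p = 4.97e-06). *DUSP6* (ENSG00000139318.8, chr12:89347235-89352501, minus strand), the phosphatase that inactivates ERK, had 72.3, 60.3 and 61.6 CPM in the day 7 libraries and 28.6, 30.8 and 28.98 CPM in the day 14 libraries. It fell likewise, with no overlap (log2 fold change -1.14, SE 0.0997, edgeR adjusted p = 7.19e-06). *SPRY1* and *SPRY2* went from 21.8 ± 4.92 to 7.25 ± 1.13 CPM and from 54.5 ± 6.04 to 26.8 ± 0.708 CPM (log2 fold changes -1.59 and -1.02, edgeR adjusted p 2.85e-05 and 1.61e-05). *EPHA2*, a receptor tyrosine kinase transcribed downstream of ERK, fell from 36.1 ± 2.08 to 17.96 ± 2.13 CPM (log2 fold change -1.01, SE 0.11, edgeR adjusted p = 3.68e-05) and lost its call after the length and GC correction, at -0.81. Both *EPHA2* and *SPRY2* lie at the fold threshold, and their calls were lost under 12 and 5 of 21 alternatives. A gene on the other strand covers 24.1% of the *DUSP6* exon bases.

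Immediate early genes, which respond to growth signals within minutes, split. Of 20 tested, 2 were called lower and 1 higher, with 9 lower and 2 higher on the adjusted p and a median of -0.62. *EGR1* (ENSG00000120738.8, chr5:138465479-138469303, plus strand), a zinc finger factor, had 23.98, 15.3 and 17.02 CPM in the day 7 libraries and 3.41, 2.84 and 3.77 CPM in the day 14 libraries. The highest day 14 library was below the lowest day 7 library (log2 fold change -2.49, SE 0.19, edgeR adjusted p = 2.72e-06). *NR4A1*, an orphan nuclear receptor, had 275, 260.2 and 263 CPM in the day 7 libraries and 97.5, 103 and 108 CPM in the day 14 libraries (log2 fold change -1.37, SE 0.0877, edgeR adjusted p = 8.97e-07). An antisense gene covers 15.6% of its exon bases, and since the strand setting of the counting is not stated the share of each cannot be told apart. *JUN* (ENSG00000177606.8, chr1:58780791-58784047, minus strand), an AP-1 subunit, went the other way, with 12.04, 10.8 and 13.2 CPM in the day 7 libraries and 32.7, 37.4 and 32.9 CPM in the day 14 libraries. All 3 day 14 values lay above all day 7 values (log2 fold change 1.51, SE 0.12, edgeR adjusted p = 2.72e-06). *RGS16*, which turns Gαq off, was the only called member of the 22 tested in the Gq pathway list and fell from 9.55 ± 0.798 to 2.295 ± 0.214 CPM (log2 fold change -2.06, SE 0.18, edgeR adjusted p = 6.99e-06). Of the 22 YAP targets, 0 were called in edgeR, 2 were higher and 5 lower on the adjusted p, and the median was -0.04. The 2 of smallest p were *ARHGEF17* at a log2 fold change of -0.69 (edgeR adjusted p = 8.04e-04) and *GADD45A* at 0.84 (edgeR adjusted p = 5.20e-04).

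**Figure D2:**
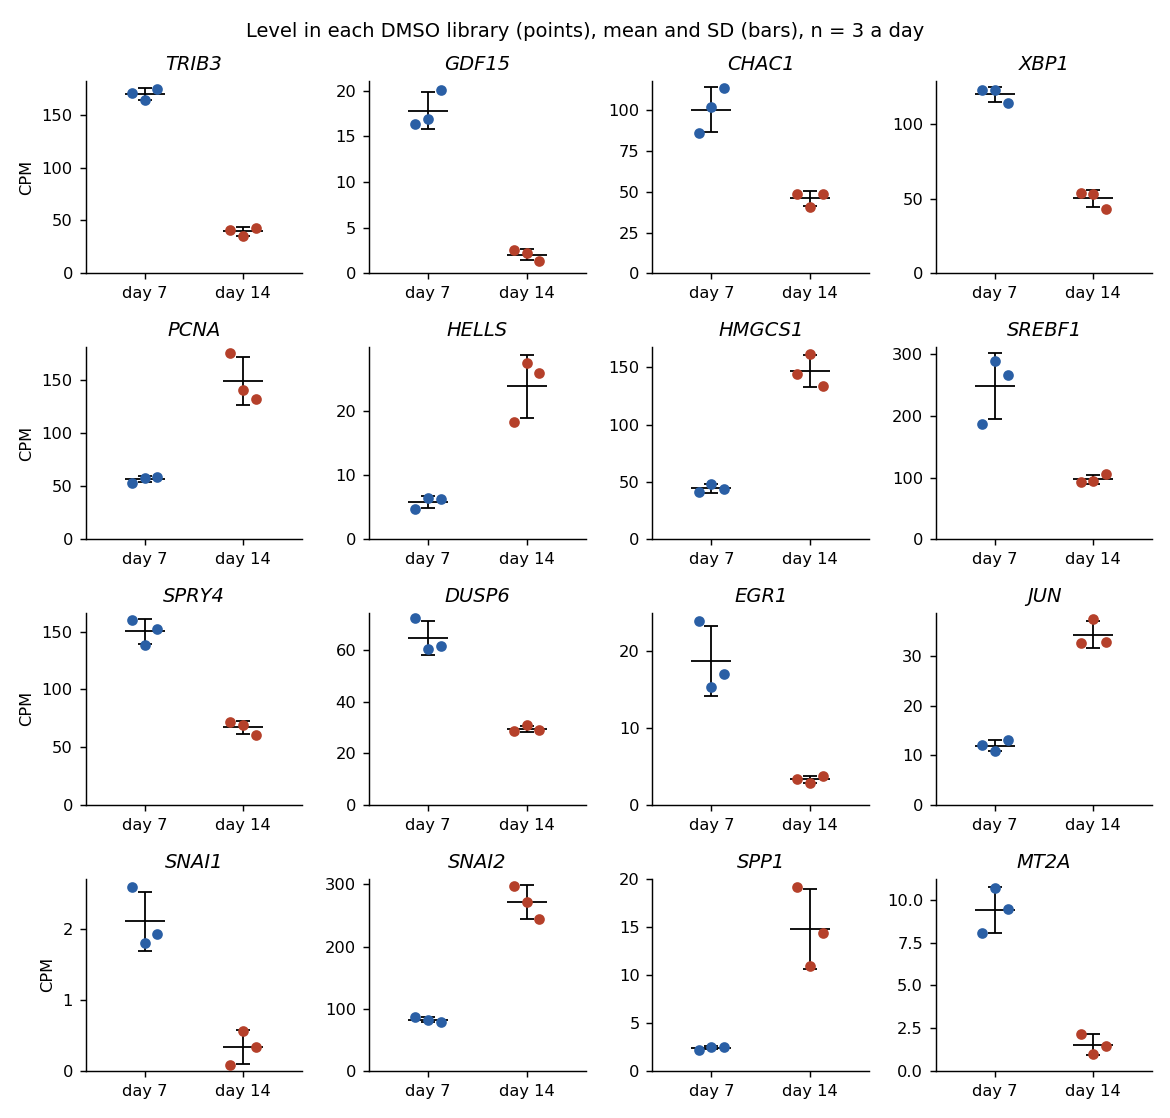
Level in CPM (vertical axes, from 0) of 16 named genes in each of the 3 DMSO libraries of day 7 (blue points) and day 14 (red points), with bars for the mean and SD of each day. In none of the 16 panels do the points of the 2 days overlap, from *SNAI1* at a day 7 mean of 2.11 CPM to *SNAI2* at a day 14 mean of 271 CPM. The naming rule required this of the genes chosen by size or by p.

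DNA replication genes were higher at day 14. In the G1/S list 4 of 24 tested genes were called higher and 0 lower, 16 were higher and 0 lower on the adjusted p, and the median was 0.65. *PCNA* (ENSG00000132646.11, chr20:5114953-5126626, minus strand), the sliding clamp of the replication fork, had 53.1, 57.5 and 58.4 CPM in the day 7 libraries and 175, 139.9 and 132 CPM in the day 14 libraries. No libraries overlapped (log2 fold change 1.401, SE 0.11, edgeR adjusted p = 3.56e-06). *E2F1* (ENSG00000101412.13, chr20:33675477-33686385, minus strand), the transcription factor that opens the G1/S programme, had 8.97, 14.2 and 11.3 CPM in the day 7 libraries and 27.7, 24.7 and 26.7 CPM in the day 14 libraries (log2 fold change 1.21, SE 0.15, edgeR adjusted p = 7.22e-05). Its call was lost in the fit of all 27 libraries (edgeR adjusted p = 0.0573). *RRM2*, the regulated subunit of ribonucleotide reductase, and *MCM4*, part of the replicative helicase, went from 25.8 ± 3.72 to 52.5 ± 5.63 CPM and from 97.1 ± 6.02 to 195 ± 13.9 CPM (log2 fold changes 1.03 and 1.01, edgeR adjusted p 5.11e-05 and 1.06e-05), with 0.89 and 1.01 after the length and GC correction. *HELLS*, a chromatin remodeller active in replicating cells, had 4.76, 6.399 and 6.23 CPM in the day 7 libraries and 18.2, 27.4 and 25.8 CPM in the day 14 libraries (log2 fold change 2.04, SE 0.17, edgeR adjusted p = 6.19e-06) and was 1 of the 10 largest rises. In the mitosis list 0 of 24 were called in edgeR, with 8 higher and 3 lower on the adjusted p and a median of 0.25. *NUSAP1*, a spindle protein, averaged 47.2 and 83.5 CPM (log2 fold change 0.82, SE 0.0865, edgeR adjusted p = 2.32e-05) and *CDC20*, the activator of the anaphase-promoting complex, 33.8 and 19.9 CPM (log2 fold change -0.76, SE 0.11, edgeR adjusted p = 2.46e-04). Another gene on the same strand covers 99.2% of the *NUSAP1* exon bases.

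The promoters of *PCNA* and *E2F1* are shown for their E2F elements, searched as TTTCCCGC, TTTCGCGC, TTTGCCGC or TTTGGCGC on either strand, in capitals, over the same 250 bases. *PCNA* (chr20:5126623-5126872, minus strand) has 1 match, starting 59 bases before the start site, and *E2F1* (chr20:33686386-33686635, minus strand) has 2, starting 33 and 20 bases before it.
PCNA: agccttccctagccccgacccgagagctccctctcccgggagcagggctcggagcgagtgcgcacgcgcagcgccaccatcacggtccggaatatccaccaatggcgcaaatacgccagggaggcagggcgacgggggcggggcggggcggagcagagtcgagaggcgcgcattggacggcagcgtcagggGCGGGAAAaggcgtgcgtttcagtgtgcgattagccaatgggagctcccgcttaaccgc
E2F1: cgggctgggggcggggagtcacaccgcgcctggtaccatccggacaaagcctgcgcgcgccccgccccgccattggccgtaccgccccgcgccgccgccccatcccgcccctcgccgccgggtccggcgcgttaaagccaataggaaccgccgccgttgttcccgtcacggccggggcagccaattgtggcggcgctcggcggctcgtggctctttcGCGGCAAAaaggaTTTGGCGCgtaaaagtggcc
*RRM2*, the other called gene matched to the table, had 0 matches. Its window, chr2:10122489-10122738, lies inside the counted gene, chr2:10120698-10131418 on the plus strand. The element was in 10 of 20 tested list members with a promoter (50%) and in 2.79% of all promoters. As for the ATF4 element, this share follows from the choice of list and not from the changes measured here.

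Targets of p53 were mostly higher, with 3 of 22 called higher and 2 lower, 12 higher and 3 lower on the adjusted p, and a median of 0.42. *TP53INP1*, a stress-induced regulator of autophagy and cell death, had 17.7, 20.1 and 21.7 CPM in the day 7 libraries and 56.97, 56.7 and 57.95 CPM in the day 14 libraries. Each day was tight and the days did not overlap (log2 fold change 1.52, SE 0.10, edgeR adjusted p = 1.18e-06). *DDB2*, a sensor of ultraviolet DNA damage, rose from 6.47 ± 1.05 to 18.6 ± 0.6304 CPM (log2 fold change 1.53, SE 0.14, edgeR adjusted p = 1.14e-05), and *FAS*, a death receptor outside the naming rule, from 1.63 ± 0.362 to 3.67 ± 0.371 CPM (log2 fold change 1.18, SE 0.26, edgeR adjusted p = 0.00443). Both members called lower, *GDF15* and *SESN2*, are also on the integrated stress response list. *CDKN1A*, which encodes the cyclin-dependent kinase inhibitor p21 and was picked after its value was seen, averaged 39.7 and 75.8 CPM (log2 fold change 0.93, SE 0.10, edgeR adjusted p = 2.73e-05), below the fold threshold. *CDKN1C*, encoding p57, was the only call among 14 CDK inhibitors and D cyclins and fell from 14.9 ± 1.34 to 6.33 ± 1.37 CPM (log2 fold change -1.24, SE 0.17, edgeR adjusted p = 1.47e-04), with -0.98 after the correction, which ended the call. With the correction that list instead held 2 genes called higher and 0 lower.

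Lipid lists held 1 call each, *HMGCS1* higher and *SREBF1* lower. Among 24 tested genes of cholesterol synthesis and uptake 1 was called higher, 10 were higher and 3 lower on the adjusted p, and the median was 0.21, where 2.11% of all tested protein-coding genes were called higher and 16.2% were higher on the adjusted p. *HMGCS1* (ENSG00000112972.15, chr5:43287470-43313412, minus strand), which makes HMG-CoA for the mevalonate pathway, had 40.8, 48.4 and 44.1 CPM in the day 7 libraries and 144, 162 and 134 CPM in the day 14 libraries. The day 14 libraries lay far above the day 7 libraries (log2 fold change 1.72, SE 0.10, edgeR adjusted p = 4.54e-07). An opposite-strand gene covers 46.7% of its exon bases. Of 11 tested genes of fatty acid synthesis and desaturation 1 was called lower, 7 were lower and 2 higher on the adjusted p, and the median was -0.45, where 2.35% of all were called lower and 17.9% were lower on the adjusted p. The difference between the lists was not tested. *SREBF1* (ENSG00000072310.18, chr17:17811334-17836986, minus strand), the transcription factor SREBP1 of that branch, had 187, 289 and 267 CPM in the day 7 libraries and 92.2, 93.96 and 106 CPM in the day 14 libraries. Its day 7 replicates spread more than its day 14 replicates, without overlap (log2 fold change -1.35, SE 0.14, edgeR adjusted p = 1.91e-05). *SREBF2*, its counterpart for cholesterol genes, averaged 319 and 179 CPM (log2 fold change -0.83, SE 0.10, edgeR adjusted p = 6.17e-05) and was chosen after its value was seen.

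Glycolysis genes were lower by small steps. All 23 tested had a negative log2 fold change, 15 with an adjusted p of at most 0.05 and 1 called, and the median was -0.40, where 17.9% of all protein-coding genes were lower on the adjusted p. *GAPDH* had 2596, 2849 and 2863 CPM in the day 7 libraries and 1486, 1203 and 1399 CPM in the day 14 libraries (log2 fold change -1.02, SE 0.0992, edgeR adjusted p = 1.37e-05). The correction left it at -0.895, just short of the fold threshold, and an antisense gene covers 32.8% of its exon bases. *ENO3*, the muscle-type enolase and not on the list, was among the 5 falls of smallest p, with 162, 154 and 151 CPM in the day 7 libraries and 60.02, 55.9 and 60.7 CPM in the day 14 libraries (log2 fold change -1.403, SE 0.08699, edgeR adjusted p = 6.47e-07). *ENO4*, an enolase-like gene of sperm, was among the largest rises from a low level, from 0.719 ± 0.215 to 3.11 ± 0.737 CPM (log2 fold change 2.103, SE 0.34, edgeR adjusted p = 5.38e-04), with 43.6% of its exon bases shared with genes on the other strand. Hypoxia-responsive genes gave 1 call of 18 tested, *LOX*, a collagen cross-linking oxidase, at -1.07 (edgeR adjusted p = 0.0167), with 7 lower and 3 higher on the adjusted p.

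Some heat shock genes rose, while the endoplasmic reticulum (ER) list held 1 fall. In the heat shock list 2 of 13 tested were called higher, 9 were higher and 0 lower on the adjusted p, and the median was 0.50. *HSPE1*, the mitochondrial co-chaperonin, had 67.3, 64.6 and 59.1 CPM in the day 7 libraries and 193, 152 and 146 CPM in the day 14 libraries (log2 fold change 1.36, SE 0.11, edgeR adjusted p = 4.80e-06), and *HSPA1B*, an inducible HSP70, 44.8, 74.9 and 63.6 CPM in the day 7 libraries and 166, 181 and 160.1 CPM in the day 14 libraries (log2 fold change 1.47, SE 0.15, edgeR adjusted p = 1.62e-05). *HSPA1B* has a near-identical neighbour in *HSPA1A*, listed at 0.175 and 0.251 CPM, so the assignment of reads between the pair is uncertain. Another gene on the same strand covers 36.6% of the *HSPA1B* exon bases, and 33.7% of the *HSPE1* exon bases belong also to a read-through gene. Among 18 ER genes 1 was called lower, 8 were lower and 3 higher on the adjusted p, and the median was -0.21. *XBP1* (ENSG00000100219.17, chr22:28794555-28800597, minus strand), the transcription factor of the unfolded protein response, had 123, 123 and 115 CPM in the day 7 libraries and 54.3, 53.1 and 43.4 CPM in the day 14 libraries. The day 14 libraries all lay below the day 7 libraries (log2 fold change -1.26, SE 0.10, edgeR adjusted p = 3.84e-06). *HSPA5*, the main ER chaperone BiP, averaged 536 and 413 CPM (log2 fold change -0.38, SE 0.09198, edgeR adjusted p = 0.00755) and *CALR*, calreticulin, 457 and 817 CPM (log2 fold change 0.84, SE 0.11, edgeR adjusted p = 8.18e-05), neither of them past the fold threshold and both chosen after seeing the values.

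Transcripts of the mitochondrial chromosome were higher, as their share of the counts was. Of 13 tested, 4 were called higher and 11 were higher on the adjusted p, with a median of 0.54 and no member below 0. *MT-ND1*, a subunit of respiratory complex I, had 7721, 9113 and 8304 CPM in the day 7 libraries and 16843, 23381 and 23873 CPM in the day 14 libraries (log2 fold change 1.35, SE 0.13, edgeR adjusted p = 1.06e-05). *MT-ND6* rose from 3594 ± 132 to 9313 ± 2083 CPM (log2 fold change 1.37, SE 0.14, edgeR adjusted p = 1.56e-05), and *MT-ND2* and *MT-ND5* had log2 fold changes of 1.003 and 1.02 (edgeR adjusted p 1.23e-04 and 8.76e-04), which the correction brought to 0.92 and 0.94. Nuclear genes of oxidative phosphorylation were not called (0 of 33 in edgeR, 3 higher and 6 lower on the adjusted p), with *NDUFV1* at 0.56 (edgeR adjusted p = 6.15e-04) and *SDHB* at -0.898 (edgeR adjusted p = 2.28e-04). Of 48 cytosolic ribosomal protein genes 0 were called in edgeR, 3 were higher and 17 lower on the adjusted p, and *RPS16*, that of smallest p among those reported here, had a log2 fold change of -0.66.

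**Figure D3:**
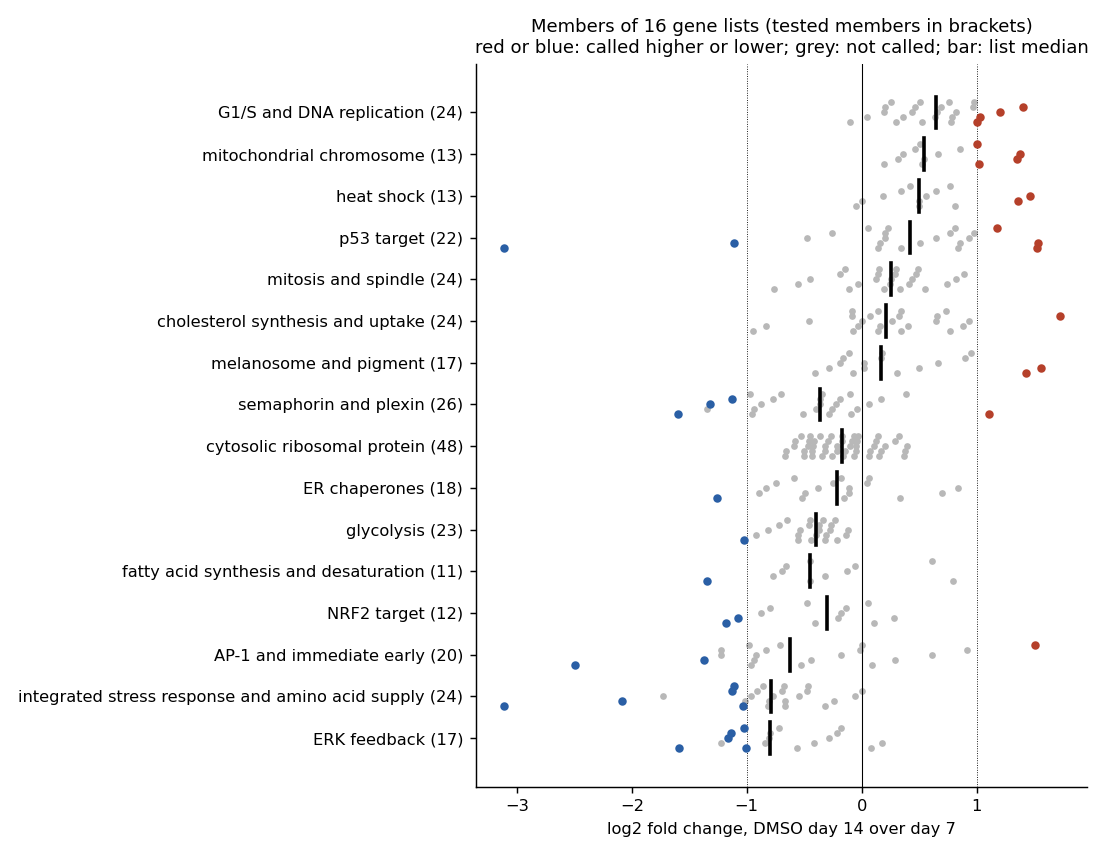
Log2 fold change in DMSO, day 14 over day 7 (horizontal axis), of every tested member of 16 gene lists (rows), with called members in red or blue, others in grey, a black bar at each list median and dotted lines at -1 and 1. The G1/S list has the highest median, 0.65, and the ERK feedback list the lowest, -0.80.

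Among melanocyte genes 3 were called, all of them higher at day 14, while others were lower on the adjusted p alone. *DCT*, the dopachrome tautomerase of pigment synthesis, had 6.35, 7.39 and 9.13 CPM in the day 7 libraries and 27.1, 21.5 and 18.9 CPM in the day 14 libraries (log2 fold change 1.56, SE 0.17, edgeR adjusted p = 2.66e-05). *MLPH*, melanophilin, which tethers melanosomes to the cell's transport motor, had 52.6, 43.4 and 44.1 CPM in the day 7 libraries and 127, 129 and 123 CPM in the day 14 libraries (log2 fold change 1.43, SE 0.0974, edgeR adjusted p = 1.37e-06). Both were clear of their day 7 range. These were the 2 called of 17 melanosome genes, with 7 higher and 2 lower on the adjusted p. *IRF4*, a pigment-linked transcription factor, was the only call among 12 lineage factors, at 0.897, 1.23 and 1.12 CPM in the day 7 libraries and 2.87, 2.12 and 4.295 CPM in the day 14 libraries (log2 fold change 1.52, SE 0.33, edgeR adjusted p = 0.004). On the adjusted p alone 3 of the 12 lineage factors were higher and 3 lower, with a median of 0.007 and a lowest log2 fold change of -0.92. *SOX10* averaged 733 and 735 CPM (log2 fold change 0.00, SE 0.10, edgeR adjusted p = 0.9897) and *MITF* 199.6 and 235 CPM (log2 fold change 0.24, SE 0.0853, edgeR adjusted p = 0.0528), neither past the threshold. *SNAI2* (ENSG00000019549.13, chr8:48917868-48921440, minus strand), the neural crest factor Slug, had 86.5, 82.1 and 78.04 CPM in the day 7 libraries and 298, 272 and 244 CPM in the day 14 libraries. The lowest day 14 library was well above the highest of day 7 (log2 fold change 1.72, SE 0.0991, edgeR adjusted p = 3.62e-07). *SNAI1* (ENSG00000124216.4, chr20:49982980-49988886, plus strand), its relative Snail, fell from a low level, with 2.59, 1.801 and 1.94 CPM in the day 7 libraries and 0.0898, 0.568 and 0.342 CPM in the day 14 libraries (log2 fold change -2.65, SE 0.54, edgeR adjusted p = 0.00239).

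Matrix and adhesion lists gave few calls, in both directions, where 2.11% of all tested protein-coding genes were called higher and 2.35% lower. *SPP1* (ENSG00000118785.15, chr4:87975714-87983529, plus strand), which encodes the secreted phosphoprotein osteopontin, had 2.21, 2.51 and 2.48 CPM in the day 7 libraries and 19.2, 10.9 and 14.3 CPM in the day 14 libraries. The replicates of day 14 spread widely and all lay above day 7 (log2 fold change 2.63, SE 0.21, edgeR adjusted p = 3.93e-06). *COL9A1*, a collagen IX chain, had the largest rise among the genes named by size, from 0.103, 0.1896 and 0.423 CPM to 0.569, 2.66 and 2.15 CPM (log2 fold change 2.85, SE 0.66, edgeR adjusted p = 0.00547). *POSTN*, periostin, had 0.449, 1.66 and 1.905 CPM in the day 7 libraries and 0.329, 0 and 0 CPM in the day 14 libraries, so that the fold rests on very few counts (log2 fold change -3.55, SE 1.04, edgeR adjusted p = 0.0212). The matrix list had 1 call higher and 2 lower of 24 tested, the collagen list 1 higher of 20, and the integrin list 1 lower of 18, namely *ITGA7*, a laminin receptor chain, which fell from 4.24 ± 0.494 to 1.27 ± 0.347 CPM (log2 fold change -1.74, SE 0.28, edgeR adjusted p = 4.91e-04). Of 21 focal adhesion plaque genes 0 were called in edgeR, with 1 higher and 9 lower on the adjusted p, and *ACTN1* and *ZYX* averaged 130.2 and 78.4 CPM and 81.3 and 50.2 CPM at days 7 and 14. *ICAM1*, an adhesion molecule for leukocytes, was the only call among 11 tested inflammatory NF-kB genes and fell from 133 ± 11.3 to 61.5 ± 2.09 CPM (log2 fold change -1.12, SE 0.0924, edgeR adjusted p = 4.72e-06), with 29.5% of its exon bases under genes of the other strand. In the semaphorin and plexin list 3 of 26 tested genes were called lower and 1 higher, with 9 lower and 2 higher on the adjusted p. On the adjusted p alone 17.9% of all tested protein-coding genes were lower and 16.2% higher. *PLXNC1*, a plexin receptor, rose from 85.8 ± 4.29 to 185 ± 13.5 CPM (log2 fold change 1.11, SE 0.0919, edgeR adjusted p = 4.72e-06). *PLXNA2* and *SEMA6B* fell from 40.6 ± 4.57 to 16.3 ± 1.37 CPM and from 8.44 ± 0.989 to 2.79 ± 0.637 CPM (log2 fold changes -1.32 and -1.6, edgeR adjusted p 6.85e-06 and 9.49e-05). *SEMA3F*, at 1.91 and 0.8695 CPM (log2 fold change -1.13, SE 0.35, edgeR adjusted p = 0.02803), was not called after the correction.

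Some genes that buffer metals and oxidants fell. *MT2A*, a metallothionein that binds zinc and copper, had 8.04, 10.7 and 9.49 CPM in the day 7 libraries and 2.19, 0.986 and 1.43 CPM in the day 14 libraries (log2 fold change -2.61, SE 0.26, edgeR adjusted p = 1.51e-05), clear of the day 7 range. *SLC30A1*, the zinc exporter, went from 10.5 ± 0.497 to 3.62 ± 1.98 CPM (log2 fold change -1.54, SE 0.32, edgeR adjusted p = 0.00283) and *MT1X* from 3.37 ± 0.451 to 1.39 ± 0.889 CPM (log2 fold change -1.27, SE 0.40, edgeR adjusted p = 0.0283), and these were the 3 called of 12 tested in the metal list. On the adjusted p alone that list went both ways, with 3 higher and 4 lower, a median of -0.24 and a highest log2 fold change of 0.702. The call of *MT1X* was lost when any of 5 libraries was left out, and metallothioneins are near-identical in sequence. Of 12 NRF2 targets 2 were called lower, 6 were lower and 0 higher on the adjusted p. *SRXN1*, sulfiredoxin, fell from 56.4 ± 2.297 to 24.8 ± 1.501 CPM (log2 fold change -1.18, SE 0.0942, edgeR adjusted p = 3.56e-06), with 90.7% of its exon bases shared with another gene on its strand. *OSGIN1*, an oxidative stress inhibitor of growth, fell from 50.9 ± 7.37 to 24.1 ± 1.9 CPM (log2 fold change -1.08, SE 0.12, edgeR adjusted p = 2.90e-05) and had a log2 fold change of -0.78 after the correction, which ended the call.

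The remaining genes named by size or by p belong to no list. Among the rises, *MAP2K6*, the kinase that activates p38, had 4.17, 4.17 and 4.63 CPM in the day 7 libraries and 18.1, 19.6 and 17.5 CPM in the day 14 libraries (log2 fold change 2.09, SE 0.14, edgeR adjusted p = 1.18e-06). *CRYGS* (a lens crystallin), *SGPP2* (a sphingosine-1-phosphate phosphatase), *ZNF491*, *RIC3* (a chaperone of acetylcholine receptors) and *PLGLB1* started from means of 0.413 to 0.874 CPM and had log2 fold changes of 2.36, 2.17, 2.05, 2.04 and 2.01. *PLGLB1* has a near-identical copy, *PLGLB2*, and its count is uncertain. Among the falls, *AKNA*, an AT-hook protein that organises microtubules, had 51.1, 57.9 and 54.3 CPM in the day 7 libraries and 12.2, 13.2 and 10.7 CPM in the day 14 libraries (log2 fold change -2.17, SE 0.11, edgeR adjusted p = 1.56e-07). *DHRS2*, a short-chain dehydrogenase, had 21.4, 20.6 and 17.96 CPM in the day 7 libraries and 2.07, 3.88 and 1.46 CPM in the day 14 libraries (log2 fold change -3.01, SE 0.26, edgeR adjusted p = 5.75e-06), and *MAL2*, a vesicle transport protein of polarised cells, 27.3, 23.9 and 25.6 CPM in the day 7 libraries and 6.38, 5.74 and 4.39 CPM in the day 14 libraries (log2 fold change -2.22, SE 0.15, edgeR adjusted p = 1.18e-06). The naming rule required the days of these 3 to be apart. *HBQ1* (a globin), *KCNJ11* (a potassium channel), *PARD6A* (a polarity protein), *LAMP3* (a lysosomal membrane protein), *MFSD2B* (a lipid transporter) and *KNDC1* began from means of 1.98 to 3.64 CPM and had log2 fold changes of -3.44, -3.12, -3.03, -2.84, -2.68 and -2.605. Other lists gave at most 2 calls each. These include *IFI44* (1.65) and *IFIT2* (1.005) among 20 interferon-stimulated genes, *CTSK* (1.51) and *TFEB* (-1.65) among 25 lysosome genes, *BMP2* (-1.38) among 20 of the TGF-beta list, *OCLN* (1.35) among 12 junction genes and *NTRK2* (1.37) beside *EPHA2* among 27 receptor tyrosine kinases. The calls of *IFIT2* and *OCLN* were each lost when any of 5 libraries was left out. The MHC class I list (0 of 16 called in edgeR, 2 higher and 2 lower on the adjusted p) and the BCL2 family (0 of 15, 1 higher and 4 lower) held *B2M* at 0.65, *HLA-E* at -0.64, *BAX* at 0.64 and *BMF* at -0.62.

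GC content moved with the change. Across the tested protein-coding genes with a GC value (99.4%), the median log2 fold change went from 0.27 in the decile of lowest transcript GC content to -0.31 in the decile of highest, with a Spearman correlation of -0.347 across genes, which are not independent replicates, against 0.0851 for length. The lowest decile held 66 genes called higher and 5 lower, the highest 5 and 91. A loess correction for both properties, chosen after seeing the data, gave 257 called higher and 267 lower, of which 205 and 224 were also called without it. The cause of the relation was not tested.

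**Figure D4:**
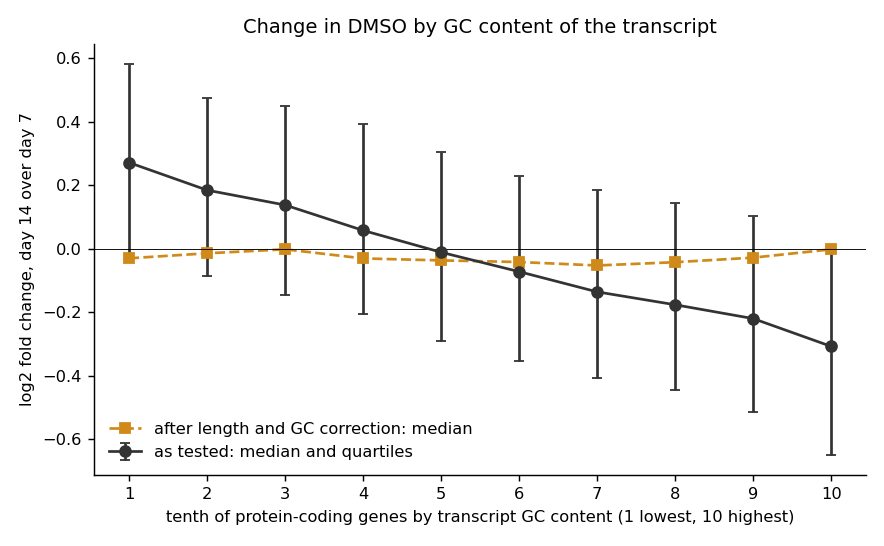
Median log2 fold change in DMSO, day 14 over day 7 (vertical axis), in deciles of protein-coding genes ordered by transcript GC content (horizontal axis), as tested with quartiles (black) and after the length and GC correction (orange squares). The uncorrected medians fall from 0.27 to -0.31 and the corrected ones stay between -0.05 and -0.0015.

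The same 2 days were compared in FAKi, where the library labelled FAKi day 7 replicate 1 lay 0.208 from FAKi day 14 replicate 1 and 0.696 and 0.729 from the other FAKi day 7 libraries. With all 6 libraries edgeR called 0 of 14350 protein-coding genes (0%), with 1538 at an unadjusted p under 0.05, and DESeq2 called 43, all lower. Without that library edgeR called 542 higher and 432 lower. Most genes called in DMSO had the same sign in FAKi, and the comparisons share no libraries. Both treatments were sampled on the same days of culture. An effect of handling common to a day therefore cannot be told apart from time in culture. Of 303 called higher and tested there, 281 were positive (median log2 fold change 0.56), and of 332 called lower 318 were negative (median -0.68), where 50.1% of all tested genes were positive. Without the library in question the counts were 282 of 302 (median 0.95) and 315 of 332 (median -0.95). *TRIB3* had 15.2, 182 and 152 CPM (scaled over the 27 libraries) in FAKi at day 7 and 16.3, 15.8 and 16.8 CPM at day 14. Replicate 1 of day 7 is below all 3 day 14 libraries, and the log2 fold change was -2.84 with it (edgeR adjusted p = 0.474) and -3.35 without it (edgeR adjusted p = 1.12e-11).

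The difference between the FAKi and DMSO changes was tested as an interaction over the 12 libraries. It called 0 of 14960 protein-coding genes in edgeR (0%), with 1770 at an unadjusted p under 0.05 and a smallest adjusted p of 0.0505, and 45 in DESeq2. Without FAKi day 7 replicate 1 it called 292, 160 higher and 132 lower. The 3 genes of smallest p were *EGR1*, *SNAI2* and *KIF3A*. Levels in this paragraph are CPM scaled over the 27 libraries. In FAKi *EGR1* had 22.2, 10.7 and 8.498 CPM at day 7, against 22.7, 13.1 and 20.5 CPM a week later, with overlapping ranges (interaction 2.95 on the log2 scale, edgeR adjusted p = 0.0505). *SNAI2* had 235, 152 and 170.3 CPM and 244, 257 and 269 CPM, from a day 7 level already above that of DMSO (interaction -1.24, edgeR adjusted p = 0.0745). *KIF3A*, a kinesin of cilia, had 34.1, 34.7 and 32.7 CPM in the day 7 libraries and 63.9, 83.5 and 79.6 CPM in the day 14 libraries in DMSO (log2 fold change 1.16, SE 0.11, edgeR adjusted p = 1.08e-05), and in FAKi 42.1, 35.8 and 42.2 CPM and 41.7, 44.7 and 43.02 CPM (interaction -1.04, edgeR adjusted p = 0.0745). Leaving out FAKi day 7 replicate 1 gave interactions of 3.47, -1.04 and -1.001 with edgeR adjusted p of 5.86e-08, 7.25e-05 and 6.34e-04.

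The day 14 levels can be set beside the other DMSO days, as CPM scaled over the 27 libraries (mean ± SD, n = 3) and without a test. *TRIB3* was at 164 ± 1.96, 217 ± 34.2, 179 ± 6.21, 41.99 ± 4.16 and 252 ± 6.15 on days 0, 3, 7, 14 and 21. *HMGCS1* was at 36.7 ± 3.12, 33.7 ± 5.504, 46.96 ± 3.87, 155 ± 16.04 and 32.8 ± 3.87 on the same days, and *SNAI2* at 98.9 ± 0.8702, 69.2 ± 20.6, 86.9 ± 4.62, 286 ± 28.9 and 57.8 ± 2.54. For these 3 genes the day 14 mean was the lowest (*TRIB3*) or the highest (*HMGCS1* and *SNAI2*) of the 5 days. *XBP1* and *SREBF1* were likewise lowest at day 14, at 53.02 ± 6.48 and 102 ± 7.25, and at 176 ± 4.55 and 418 ± 27.4 at day 21. *SPRY4* and *EGR1* were at 70.8 ± 6.15 and 3.52 ± 0.47 at day 14 and at 76.6 ± 28.6 and 6.12 ± 3.35 at day 21, still under their day 7 means of 159 ± 12.3 and 19.8 ± 4.92. For *JUN* the day 7 mean was the lowest, at 29.96 ± 1.55, 31.4 ± 1.297, 12.7 ± 1.27, 36.2 ± 3.09 and 29.8 ± 0.542 on the 5 days. *POSTN* had its highest mean at day 7, 1.41 ± 0.822, with means of 0.0179 to 0.116 on the other days. *PCNA* was at 59.5 ± 2.89, 157 ± 23.97 and 81.8 ± 22.6 at days 7, 14 and 21. At day 21 replicate 3 stood apart in some genes, with *SPRY4* at 61.5, 58.8 and 110 CPM in replicates 1 to 3. *EGR1* was at 5.1, 3.41 and 9.86 CPM in these libraries and *PCNA* at 100, 88.8 and 56.5 CPM. At day 3 the mitochondrial share in DMSO was 18.1% in replicate 1 and 9.59 and 8.61% in replicates 2 and 3. The day 14 libraries are the same ones in both steps of this series of days, so the later step is not an independent look at the earlier one.

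**Figure D5:**
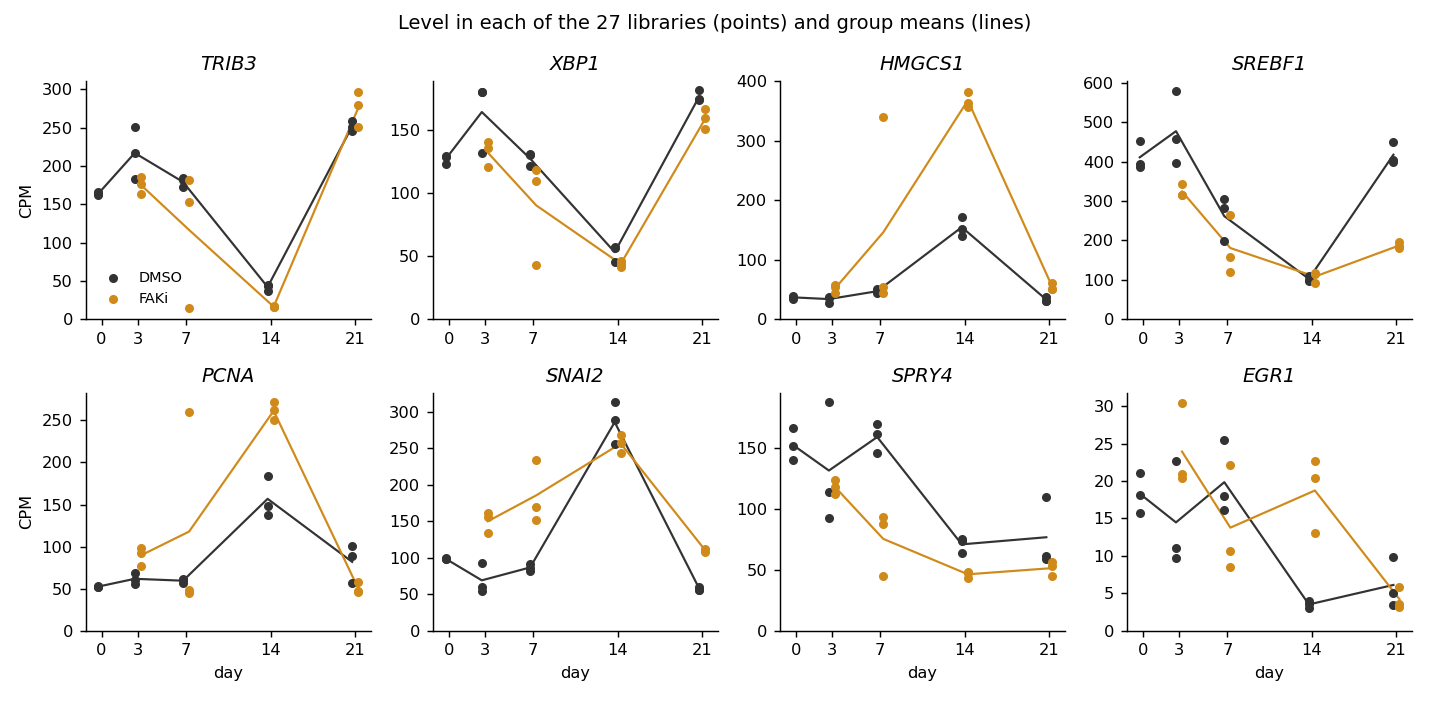
Level in CPM scaled over the 27 libraries (vertical axes, from 0) of 8 named genes against the day of culture (horizontal axis), with a point for each library and lines through group means, DMSO in black and FAKi in orange. *TRIB3*, *XBP1* and *SREBF1* have their lowest DMSO mean at day 14 and *HMGCS1*, *PCNA* and *SNAI2* their highest, and 1 FAKi library of day 7 sits with the day 14 libraries in the *TRIB3*, *HMGCS1* and *PCNA* panels.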

How the data were processed

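RNA of 92.1 cells was sequenced from stranded mRNA libraries. The authors trimmed reads with Trim Galore, checked them with FastQC 0.11.8, aligned them to hg38 with STAR 2.5.3a and counted exons of GENCODE genes with HOMER, so the deposited values are raw read counts per gene, with 1 transcript for each gene. How the counting treated strand and multiply mapped reads is not given in the sources used here.

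Sample groups came from the titles, and 0 sample columns were left unused. Genes with at least 20 counts over the libraries of a comparison were tested with the quasi-likelihood test of edgeR 4.0.16 (TMM scaling, R 4.3.3) in place of the DESeq2 test of the study, with Benjamini-Hochberg adjustment over all genes tested. Calls needed an adjusted p no higher than 0.05 together with a log2 fold change above 1 in size, and protein-coding genes are described. Levels are CPM, computed here. FAKi libraries and the interaction were fitted in the same way. The code was tested on simulated data.

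The naming rule took, from called genes with a mean of at least 1 CPM and non-overlapping days, the 10 largest rises and falls and the 5 smallest p in each direction. It also took at most 4 called members of each of 35 lists (the 2 of smallest p where none was called), the 3 interaction genes of smallest p, *PTK2* and *GNAQ*. Some genes and marker values that this rule or the marker lists cover are not reported here. The libraries compared, lists and rule were chosen with earlier results of these data known. Alternatives were other scalings, filters, thresholds, depths and gene sets, DESeq2 1.42.0, all 27 libraries in one fit, a replicate block and leaving out each library. The length and GC correction, and the FAKi values of DMSO-called genes without FAKi day 7 replicate 1, were chosen after seeing the data. Promoters are RefSeq windows of GRCh38.p14.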

Additional observations from a re-analysis of the deposited data

How the results depend on the processing

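For DMSO day 14 against day 7, scaling, filters, DESeq2, the fit of all 27 libraries, thinning, gene sets and the stricter p kept the number of called protein-coding genes within 1.5 times of 647. Dropping the fold threshold gave 4947, and leaving out single libraries gave 498 to 805. Of 77 called named genes 57 stayed called under every alternative run for them, which was 21 for most and 20 where a gene failed the filter of 10 counts in every library or was left out with the mitochondrial genes. Of the others, 14 lost the call under the length and GC correction, 16 without some single library, and 0 reversed. For FAKi, against 0 calls, there were 257 with no count filter, 43 with DESeq2, 189 with all 27 libraries in one fit and 0 to 974 on leaving out single libraries, 974 without FAKi day 7 replicate 1. For the interaction, against 0 calls, there was 1 each with upper quartile scaling, with thinned counts and with the replicate block, 99 with no count filter, 45 with DESeq2, 7 with all 27 libraries, 4 with the length and GC correction, 5 with that correction and the replicate block, and 0 to 292 on leaving out single libraries (292 without FAKi day 7 replicate 1, 24 without FAKi day 7 replicate 2). The cause was not tested.

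Same-numbered DMSO libraries had correlated deviations of 0.0507, 0.00785 and 0.0284 over 16585 genes, so the numbers were not taken to pair them. With the replicate block 616 genes were called in DMSO (279 higher, 337 lower), 592 of them also without it, and 0 in FAKi. Genes near 1 CPM have the widest errors, and large folds there, as of *POSTN*, rest on few counts.

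Calls of these named genes were lost without 1 library, with the log2 fold change that remained. Without DMSO day 7 replicate 1 they were *IFIT2* (0.75), *MCM4* (0.96), *MT1X* (-1.22), *OCLN* (1.26), *RRM2* (0.91), *SEMA3F* (-1.15) and *SPRY2* (-0.93). Without DMSO day 7 replicate 2 they were *EPHA2* (-0.998), *IFIT2* (1.04), *LOX* (-0.99), *MT-ND2* (0.93), *MT-ND5* (0.97), *MT1X* (-1.38), *OCLN* (1.49), *OSGIN1* (-0.98), *POSTN* (-3.38) and *SEMA3F* (-1.205). Without DMSO day 7 replicate 3 they were *CEBPB* (-0.96), *EPHA2* (-0.97), *GAPDH* (-0.996), *IFIT2* (1.27), *LOX* (-1.05), *MT-ND2* (0.95), *MT-ND5* (0.98), *MT1X* (-1.21), *OCLN* (1.302), *POSTN* (-3.197) and *SEMA3F* (-1.03). Without DMSO day 14 replicate 1 they were *IFIT2* (0.88), *LOX* (-0.99), *MCM4* (0.96), *OCLN* (1.31), *RRM2* (0.94) and *SESN2* (-0.996). Without DMSO day 14 replicate 2 they were *EPHA2* (-0.91), *GAPDH* (-0.94), *LOX* (-0.92), *MT-ND2* (0.94), *MT-ND5* (0.96), *MT1X* (-0.896) and *POSTN* (-2.97). Without DMSO day 14 replicate 3 they were *CEBPB* (-0.97), *IFIT2* (0.94), *MT-ND2* (0.91), *MT-ND5* (0.82), *MT1X* (-1.21), *OCLN* (1.16) and *SPRY2* (-0.997).

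Other alternatives ended these calls, where the value is again the log2 fold change. *EPHA2* was lost with RLE scaling (-0.996), upper quartile scaling (-0.995), DESeq2 (-0.997) and thinning (-0.997). *EPHA2*, *GAPDH* and *SPRY2* were lost under the filter of 10 counts per library (-0.98, -0.99 and -0.99), filterByExpr (-0.98, -0.999 and -0.997) and protein-coding genes only (-0.98, -0.998 and -0.996). The fit of all 27 libraries ended the calls of *CHAC1* (-1.13), *E2F1* (1.198), *IFIT2* (0.9997), *LOX* (-1.08) and *MT-ND2* (0.999), and no count filter those of *IFIT2* (0.99), *MCM4* (0.99), *MT-ND2* (0.99), *OCLN* (1.34) and *SEMA3F* (-1.14). Thinning also ended those of *IFIT2* (0.899), *LOX* (-0.98) and *OCLN* (1.199), leaving out mitochondrial genes that of *IFIT2* (0.999), and DESeq2 that of *POSTN* (-3.59). The replicate block ended those of *MT-ND2* (0.997), *MT-ND5* (0.97), *OCLN* (1.32) and *SEMA3F* (-1.13). At an adjusted p of 0.01 *IFIT2*, *LOX*, *MT1X*, *OCLN*, *POSTN* and *SEMA3F* were not called.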

Other observations

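Further gene families were counted in the DMSO comparison by symbol, 10 in all and all chosen after their values were seen, so the counts are a description. The 3 given first were picked for their shifts. Among 468 tested ZNF zinc finger genes, mostly DNA-binding repressors, 27 were called higher (5.77%) and 3 lower, where 2.11% and 2.35% of all tested protein-coding genes were. On the adjusted p alone 116 were higher and 32 lower, and the median log2 fold change was 0.18. After the length and GC correction 10 were called higher and 1 lower, with a median of 0.13. Of 38 CEP centrosomal genes 2 were called higher, 19 were higher and 1 lower on the adjusted p, and the median was 0.43, or 0.24 after the correction. Of 18 cytosolic aminoacyl-tRNA synthetases, which charge tRNAs with amino acids, 1 was called lower, 12 were lower and 0 higher on the adjusted p, and the median was -0.45, or -0.48 after the correction. Proteasome subunits (38 tested), USP deubiquitinases (49) and mitochondrial ribosomal proteins (78) had 0 calls in edgeR, with 4, 7 and 9 higher and 4, 7 and 16 lower on the adjusted p. Kinesins (37) and histones (28) had 1 call in each direction, RAB GTPases (67) had 3 lower and 0 higher, and SLC transporters (260) had 7 lower and 3 higher, with a median of -0.19.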
